A study of Mus musculus with 6 samples.

Results

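The genes of cholesterol synthesis and its control and the genes of fatty acid synthesis, modification and activation were followed in 6 bulk RNA-seq libraries of CT2A tumours, a mouse glioblastoma line grown under the skin. The group has 36 genes, chosen by symbol from the 55291 in the count table: 24 in a sterol arm and 12 in a fatty acid arm. The tumours came from Siglece KO mice (3 libraries) and from WT mice (3 libraries). Siglece encodes Siglec-E, which binds sialic acids on mouse myeloid cells and restrains them, and the design asks how the tumours of KO and WT hosts differ. All 6 libraries are of the same tumour line, and neither the strain, sex and age of the mice nor the age of the tumours is stated in the labels. Each library was made by the Smart-seq2 method, which does not mark strand, from 5000 to 20000 CT2A cells per the labels. No sort or gate is named there, and the source label reads brain although the tissue label is a subcutaneous tumour. Whether the 3 libraries of a genotype stem from 3 mice is not said either. SDs and p-values therefore measure only the spread between these libraries, which need not be a spread between mice. The 36 genes were proposed with the KO against WT result known. Their KO against WT values are therefore given as a description, with standard errors and no p-values. Where a gene of the 36 is said to be called or not, this labels the side of the threshold and is not evidence.

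Cells make cholesterol from acetyl-CoA through the mevalonate pathway, by way of squalene and lanosterol. The transcription factors SREBP-2 (gene Srebf2) and SREBP-1 (gene Srebf1) switch on the enzymes of this pathway and of fatty acid synthesis. They are held in the endoplasmic reticulum by the escort protein SCAP and the INSIG proteins while sterol is plentiful, and are carried to the Golgi and cut free when it is scarce. SREBP-2 acts mainly on sterol genes and SREBP-1 mainly on fatty acid genes. Growing tumour cells use both routes to build membranes, and adipocytes and liver cells run the fatty acid route at a high rate.

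Library totals ran from 24369359 to 32162184 counts in KO and from 29673568 to 40574093 counts in WT. Siglece had 0, 8 and 0 counts in KO replicates 1, 2 and 3, against 74, 99 and 64 counts in WT replicates 1, 2 and 3. The libraries differed in makeup, and KO replicate 2 stood nearer to WT than the other KO libraries did: the chi-square per degree of freedom over all genes was 105 between KO replicate 2 and WT replicate 2, and 340 between KO replicate 2 and KO replicate 1. The 13 neural and glial markers, which bear on the labelled glioma identity, summed to 120.3, 718 and 104 CPM (counts per 1000000 of the TMM-scaled library size) in KO replicates 1, 2 and 3, against 1094, 1002 and 1080.0 CPM in WT replicates 1, 2 and 3. Of this list Gfap had 0 counts in KO replicate 3, and Sox9 alone was higher in each KO library than in each WT library. The 11 cycling markers summed to 501, 1391 and 341 CPM in KO, against 2064, 1851 and 1981 CPM in WT. Leukocyte markers (10 genes) summed to 821 to 2452 CPM in KO, against 297 to 388 CPM in WT, fibroblast and endothelial markers (8 genes) to 12385 to 38395 CPM, against 2262 to 3635 CPM, and skeletal muscle markers (6 genes) to 314 to 2049 CPM, against 85.7 to 193 CPM. The part of these differences in the results on lipid genes was not tested, and in bulk samples fewer cells of a type and less RNA per cell cannot be told apart.

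Both arms were lower in KO tumours. The sterol genes together made up 709.9, 1196 and 756 CPM in KO replicates 1, 2 and 3, against 2148, 2122 and 2303 CPM in WT replicates 1, 2 and 3. The fatty acid genes made up 723, 1489.7 and 842 CPM in KO, against 1729.9, 2462 and 3007 CPM in WT. KO replicates 1 and 3 were the lowest on both sums, KO replicate 2 lay between them and WT, and on this scale neither sum overlapped between the groups. On other scales the fatty acid sums did overlap. KO replicate 2 exceeded WT replicate 1 as a share of counts, 0.163% against 0.156%. It did so too in TPM (a level that corrects for gene length), 828 against 618 TPM. The sterol sums stayed apart on both scales, with KO replicate 2 at 0.131% and 832 TPM and WT replicate 1 at 0.194% and 1009 TPM. The median log2 fold change of KO over WT was -1.33 for the 24 sterol genes and -1.18 for the 12 fatty acid genes, beside -0.05 for all 18621 genes tested. All 36 genes passed the filter on low counts, and the lowest count of any of them in any library was 44, for Idi1 in KO replicate 3.

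**Figure D1:**
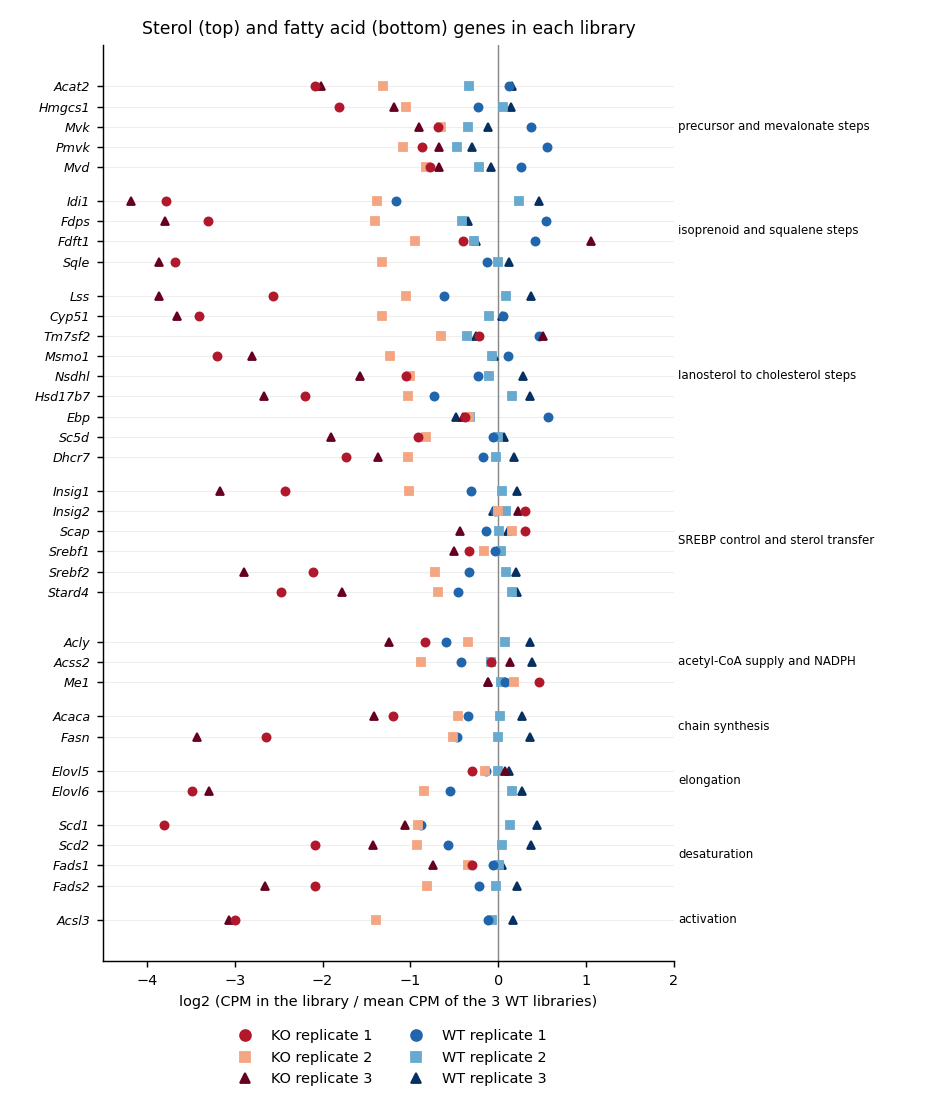
Level of each of the 36 genes in each library as log2 of its CPM over the mean of the 3 WT libraries, which is 0 on the x axis; genes run down the page by arm and pathway step, red tones are KO and blue tones WT. KO replicates 1 and 3 lie furthest to the left for most sterol genes, down to -4.18 for Idi1, and KO replicate 2 lies between -0.65 and -1.41 for 20 of the 24 sterol genes.

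Of the 24 sterol genes 6 were called lower in KO at an adjusted p under 0.05 (edgeR quasi-likelihood test over all genes), and 1 of the 12 fatty acid genes was. The share called lower among all tested genes was 0.226%, and since the genes were chosen with this contrast known nothing is read from the difference. None of the 36 was called higher (0 by edgeR, DESeq2 or limma-voom, and 0 at an unadjusted p under 0.05 in edgeR), beside 11.2% of all genes with edgeR, 17.5% with DESeq2 and 5.31% with limma-voom, and 22.2% at an unadjusted p under 0.05 in edgeR. Fold changes were below 0 for 21 sterol and 11 fatty acid genes, and for 51.7% of all genes. For 19 sterol and 8 fatty acid genes each KO library was below each WT library, and 19.5% of all genes lay so. Because the genes were chosen with the contrast known, nothing is read from the lack of higher calls, the signs or the group order either. The count of 6 sterol genes was 15 without KO replicate 2, a fit in which 3629 of all genes were called lower (main 42). It was 1 without KO replicate 3, where 6 of all genes were called lower. It was 0 without any single one of KO replicate 1 or the WT libraries, fits in which edgeR called 0 genes of any kind. DESeq2 called 16 sterol genes lower (beside 6.68% of all genes). Limma-voom called 8 sterol genes and 1 fatty acid gene lower (beside 0.166% of all genes). The count of 1 fatty acid gene was 6 without KO replicate 2 and 6 with DESeq2, and 0 without any other single library. The median fold changes kept their sign in each of these fits.

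Promoter sequences of members were compared for motifs of the SREBP pathway. RefSeq promoter entries (GRCm38.p6, 250 bases before to 50 after the start) matched 29 of the 36 genes. They were searched on both strands for TCACNCCAC, a form of the sterol regulatory element that SREBPs bind, for CCAAT, the NF-Y box, and for GGGCGG, the GC box of Sp1; NF-Y and Sp1 are known partners of SREBPs at such promoters. The sequences are of the 4 sterol genes with the lowest fold change among those with an entry, of the fatty acid genes with the lowest (Acsl3) and the highest (Me1), and of Hmgcs1, which was added after the search as the only gene with a TCACNCCAC match. The E-box CACGTG was searched too. Capitals mark matches to TCACNCCAC, CCAAT or GGGCGG on either strand, and matches could overlap. Fdps, Fdft1, Sqle, Stard4, Scd1, Scd2 and Fads1 had no entry.
Idi1 promoter, chr13:8885356-8885655, plus strand: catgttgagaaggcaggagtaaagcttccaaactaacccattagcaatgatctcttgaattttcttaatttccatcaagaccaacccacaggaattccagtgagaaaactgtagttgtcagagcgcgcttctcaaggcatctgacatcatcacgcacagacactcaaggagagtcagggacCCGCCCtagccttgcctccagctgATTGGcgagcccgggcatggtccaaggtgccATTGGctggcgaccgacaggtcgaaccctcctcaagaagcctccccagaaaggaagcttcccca
Cyp51 promoter, chr5:4104648-4104947, minus strand: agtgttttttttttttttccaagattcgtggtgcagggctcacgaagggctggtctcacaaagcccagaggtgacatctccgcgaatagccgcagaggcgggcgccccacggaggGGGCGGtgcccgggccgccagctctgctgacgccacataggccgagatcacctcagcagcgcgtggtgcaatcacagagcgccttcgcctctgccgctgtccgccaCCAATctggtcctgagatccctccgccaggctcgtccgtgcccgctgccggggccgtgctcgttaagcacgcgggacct
Msmo1 promoter, chr8:64733529-64733828, minus strand: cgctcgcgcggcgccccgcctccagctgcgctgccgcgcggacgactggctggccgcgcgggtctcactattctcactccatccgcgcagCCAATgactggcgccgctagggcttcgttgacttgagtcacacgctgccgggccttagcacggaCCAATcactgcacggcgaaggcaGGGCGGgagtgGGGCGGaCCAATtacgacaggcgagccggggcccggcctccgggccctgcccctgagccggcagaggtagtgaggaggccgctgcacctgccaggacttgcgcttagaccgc
Lss promoter, chr10:76531355-76531654, plus strand: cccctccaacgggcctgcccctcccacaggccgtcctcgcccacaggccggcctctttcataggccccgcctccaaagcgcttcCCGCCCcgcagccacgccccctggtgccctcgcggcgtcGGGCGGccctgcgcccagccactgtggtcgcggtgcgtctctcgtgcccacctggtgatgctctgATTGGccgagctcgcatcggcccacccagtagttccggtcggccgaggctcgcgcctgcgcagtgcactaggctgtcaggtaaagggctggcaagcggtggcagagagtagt
Hmgcs1 promoter, chr13:119690101-119690400, plus strand: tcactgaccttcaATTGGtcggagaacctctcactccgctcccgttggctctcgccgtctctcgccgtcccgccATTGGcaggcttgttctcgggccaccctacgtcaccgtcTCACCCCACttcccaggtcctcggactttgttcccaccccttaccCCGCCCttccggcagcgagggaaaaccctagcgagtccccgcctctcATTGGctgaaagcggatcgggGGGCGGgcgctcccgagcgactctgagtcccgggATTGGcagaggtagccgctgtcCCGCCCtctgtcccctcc
Acsl3 promoter, chr1:78657575-78657874, plus strand: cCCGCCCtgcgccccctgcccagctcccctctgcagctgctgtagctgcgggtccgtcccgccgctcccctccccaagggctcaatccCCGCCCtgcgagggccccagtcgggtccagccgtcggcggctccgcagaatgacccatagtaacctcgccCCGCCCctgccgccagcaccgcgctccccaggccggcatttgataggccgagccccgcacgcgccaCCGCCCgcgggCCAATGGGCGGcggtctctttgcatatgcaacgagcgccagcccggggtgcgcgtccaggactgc
Me1 promoter, chr9:86695865-86696164, minus strand: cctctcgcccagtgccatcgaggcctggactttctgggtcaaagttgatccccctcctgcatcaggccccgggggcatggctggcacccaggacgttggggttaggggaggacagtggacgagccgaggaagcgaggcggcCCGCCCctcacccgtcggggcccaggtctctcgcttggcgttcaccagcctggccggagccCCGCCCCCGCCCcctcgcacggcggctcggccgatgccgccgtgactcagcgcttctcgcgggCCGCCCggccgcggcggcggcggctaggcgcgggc

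CCAAT was present in 19 of 28 promoter entries of the sterol genes (67.9%), in 6 of 10 entries of the fatty acid genes (60%) and in 37.6% of the 15828 entries of all tested genes. GGGCGG was present in 23 of 28 (82.1%) and 5 of 10 (50%), against 57.6%. CACGTG was present in 21.4% and 10%, against 9.29%. TCACNCCAC matched 1 sterol entry, that of Hmgcs1 as TCACCCCAC, its first base 137 bases before the start, and 0 fatty acid entries, against 1.16% of entries of tested genes. Several sterol genes have more than 1 entry, so that entries are not independent. These are matches of letters in a window, and a window with no match says nothing about binding; the Me1 entry shown, of a gene whose groups overlapped, held 4 GGGCGG and 0 CCAAT matches.

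The sterol arm is given in the order of the pathway. Acat2, the cytosolic thiolase that joins acetyl-CoA units (ENSMUSG00000023832.14, chr17:12942890-12960747, mm10), was called lower in KO, at 12.2, 20.9 and 12.9 CPM in KO replicates 1, 2 and 3, against 56.8, 41.5 and 58.0 CPM in WT replicates 1, 2 and 3. All KO libraries lay below all WT libraries, with a log2 fold change of -1.76 (SE 0.31). Acat3, a close copy of Acat2, had 362, 877 and 568 counts in KO, against 2763, 842 and 835 counts in WT, and how reads common to both were counted is not given. Hmgcs1, the HMG-CoA synthase, was also called, at 33.0, 55.9 and 51.0 CPM in the KO libraries, against 99.4, 120.4 and 129 CPM in the WT libraries and a log2 fold change of -1.32 (SE 0.29). The next enzymes differed less. Mevalonate kinase (Mvk), phosphomevalonate kinase (Pmvk) and mevalonate diphosphate decarboxylase (Mvd) came to -0.74 (SE 0.30), -0.87 (SE 0.34) and -0.76 (SE 0.25) on the same scale. Mvk was at 13.9, 14.2 and 11.9 CPM in the KO libraries, against 28.8, 17.5 and 20.5 CPM in the WT libraries. Pmvk was at 18.1, 15.6 and 20.7 CPM in the KO libraries, against 48.5, 23.8 and 26.9 CPM in the WT libraries. Mvd was at 24.3, 23.6 and 26.2 CPM in the KO libraries, against 50.1, 35.8 and 39.5 CPM in the WT libraries. These 3 were not called, although their groups did not overlap. The KO libraries lay close together here, with a coefficient of variation of 5.48% for Mvd, and KO replicate 2 was the lowest KO library for Pmvk and Mvd.

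The isoprenoid and squalene steps held the lowest fold changes and one exception. Idi1, the isomerase of isopentenyl diphosphate, was at 2.89, 15.4 and 2.19 CPM in KO replicates 1, 2 and 3, against 17.8, 46.9 and 54.9 CPM in WT replicates 1, 2 and 3. The log2 ratio of KO replicate 3 to the WT mean was -4.18, while KO replicate 2 was just below WT replicate 1. Farnesyl diphosphate synthase (Fdps) was at 14.2, 52.8 and 10.1 CPM in the KO libraries, against 205, 105 and 110.1 CPM in the WT libraries, with WT replicate 1 above the other WT libraries. Squalene epoxidase (Sqle) was at 10.4, 53.0 and 9.12 CPM in the KO libraries, against 121, 132 and 145 CPM in the WT libraries. Log2 fold changes were -2.54 (SE 0.80) for Idi1, -2.44 (SE 0.65) for Fdps and -2.45 (SE 0.68) for Sqle, and none of these was called. The log2 ratio to the WT mean was -1.41 to -1.32 in KO replicate 2 and -4.18 to -3.30 in KO replicates 1 and 3.

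Fdft1, the squalene synthase between Fdps and Sqle, did not follow its neighbours. It was at 65.5, 45.0 and 179 CPM in KO replicates 1, 2 and 3, against 116, 71.2 and 72.5 CPM in WT replicates 1, 2 and 3, so that the groups overlapped (log2 fold change 0.16, SE 0.52). Its exons overlap those of Ctsb, the gene of the lysosomal protease cathepsin B on the other strand, by up to 774 bases, and the libraries do not mark strand. Ctsb had 216785, 72236 and 229550 counts in KO, against 37083, 26986 and 24894 counts in WT. KO replicate 3 was the highest library for both genes. By mean TPM Fdft1 ranked first of the 24 sterol genes in KO, at 55.4 TPM, and number 12 in WT, at 59.2 TPM. It was at 44.2, 35.3 and 86.9 TPM in KO replicates 1, 2 and 3. Srebf1, at 50.7 and 66.3 TPM, was higher than Fdft1 in KO replicates 1 and 2, so the first rank in KO rests on KO replicate 3. How many Fdft1 counts came from Ctsb was not tested, and the Fdft1 value is uncertain for that reason.

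From lanosterol to cholesterol, 4 of 9 enzymes were called lower. Cyp51 is the lanosterol demethylase (ENSMUSG00000001467.5, chr5:4081145-4104746). By mean TPM it ranked number 6 of the 24 sterol genes in KO tumours, at 34.4 TPM, and first in WT tumours, at 179 TPM. It was at 25.2, 107 and 21.1 CPM in the KO libraries, against 277, 247 and 275 CPM in the WT libraries, a log2 fold change of -2.39 (SE 0.63). Msmo1, the sterol C4 methyl oxidase, was at 17.3, 67.7 and 22.8 CPM in the KO libraries, against 172, 152 and 155 CPM in the WT libraries (log2 fold change -2.15, SE 0.52). For both genes KO replicate 2 held more than the other KO libraries together and still less than any WT library. Nsdhl, a sterol dehydrogenase, and Dhcr7, the reductase of the last step, were called with smaller and more even differences, -1.19 (SE 0.31) and -1.35 (SE 0.27). Nsdhl was at 11.8, 12.2 and 8.23 CPM in the KO libraries, against 20.9, 22.8 and 29.9 CPM in the WT libraries. Dhcr7 was at 25.4, 41.3 and 32.8 CPM in the KO libraries, against 75.2, 83.0 and 95.4 CPM in the WT libraries. The KO libraries of these 2 genes lay closer together than those of Cyp51 and Msmo1. Lanosterol synthase (Lss), which closes the sterol rings, was at 11.2, 31.7 and 4.54 CPM in the KO libraries, against 42.8, 69.7 and 84.9 CPM in the WT libraries (log2 fold change -2.05, SE 0.66). Hsd17b7, a ketosteroid reductase, was at 5.07, 11.5 and 3.69 CPM in the KO libraries, against 14.1, 26.0 and 30.0 CPM in the WT libraries (log2 fold change -1.79, SE 0.51). Sc5d, the C5 desaturase, was at 21.2, 22.6 and 10.7 CPM in the KO libraries, against 38.6, 39.9 and 41.8 CPM in the WT libraries (log2 fold change -1.14, SE 0.33). These 3 had groups that did not overlap and were not called.

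Tm7sf2 and Ebp had overlapping groups. Tm7sf2, a sterol C14 reductase, was at 18.7, 13.9 and 31.0 CPM in the KO libraries, against 30.0, 17.0 and 18.3 CPM in the WT libraries (log2 fold change -0.04, SE 0.39), and its exons overlap those of Vps51 on the same strand. Ebp, the sterol isomerase, was at 39.9, 41.3 and 39.3 CPM in KO replicates 1, 2 and 3, all between WT replicates 2 and 3 (41.6 and 37.2 CPM). Its log2 fold change of -0.37 (SE 0.32) came with WT replicate 1 at 76.5 CPM, and was 0.01 without that library.

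**Figure D2:**
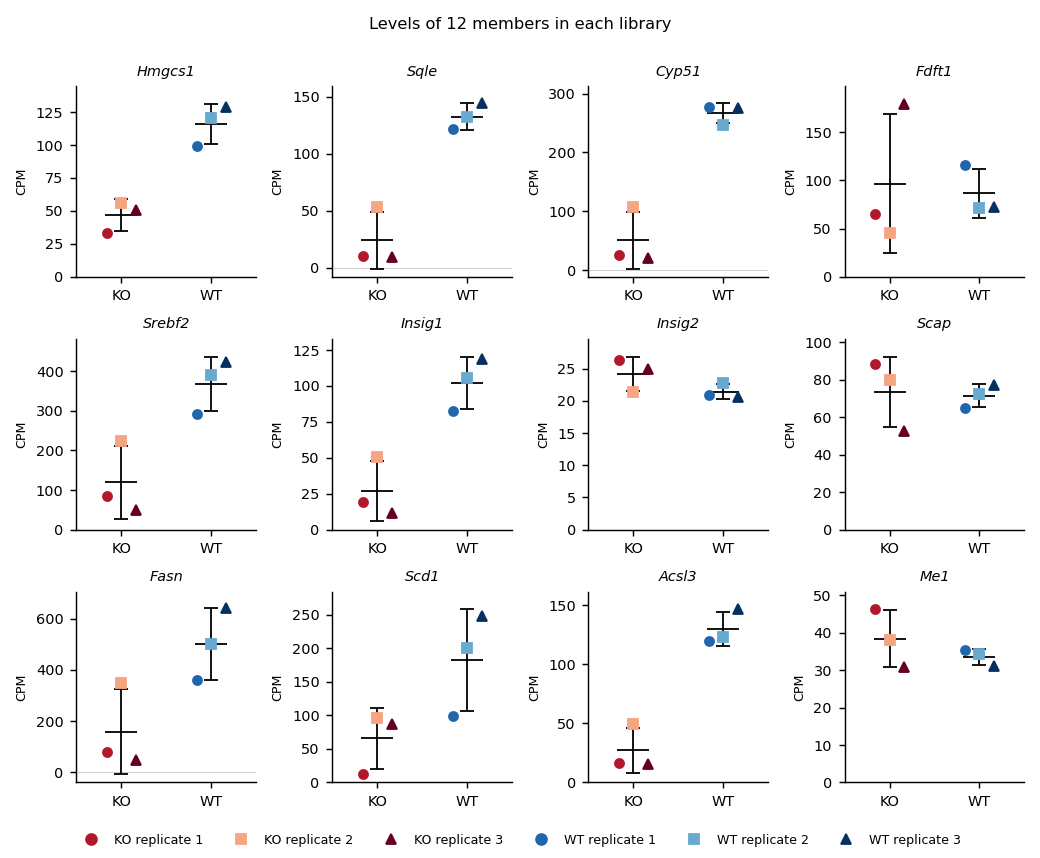
CPM of 12 genes in each KO and WT library (points), with the group mean and SD (bars, n = 3). Cyp51, Sqle, Insig1 and Acsl3 show KO replicate 2 above the other KO libraries and below each WT library, while Fdft1, Insig2, Scap and Me1 overlap between the groups.

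Of the 6 genes of SREBP control and sterol transfer, 4 had each KO library below each WT library. Srebf2, the sterol factor, was at 85.7, 224 and 49.6 CPM in KO replicates 1, 2 and 3, against 292, 390.4 and 424 CPM in WT replicates 1, 2 and 3, a log2 fold change of -1.62 (SE 0.55). Insig1, which holds SCAP back and is itself a target of SREBPs, was at 19.0, 50.8 and 11.4 CPM in the KO libraries, against 82.8, 105 and 119 CPM in the WT libraries (log2 fold change -1.92, SE 0.53). Stard4, a carrier of cholesterol between membranes that is also SREBP-driven, was at 17.1, 58.8 and 27.6 CPM in the KO libraries, against 68.9, 106 and 109.6 CPM in the WT libraries (log2 fold change -1.46, SE 0.46). These 3 had no overlap between groups and none was called. Srebf1 differed little: it was at 103, 116 and 91.6 CPM in the KO libraries, against 127, 132 and 130.3 CPM in the WT libraries (log2 fold change -0.33, SE 0.24). Insig2, the partner of Insig1 that does not depend on SREBPs in the same way, and Scap overlapped between the groups. Insig2 was at 26.4, 21.3 and 25.0 CPM in the KO libraries, against 20.9, 22.7 and 20.6 CPM in the WT libraries (log2 fold change 0.18, SE 0.25). Scap was at 88.6, 79.8 and 52.8 CPM in the KO libraries, against 65.2, 72.2 and 77.5 CPM in the WT libraries. The sign of Scap's log2 fold change, 0.04 (SE 0.27), turned under other scalings, to -0.03 with RLE scaling and -0.08 without composition scaling.

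Ratios of paralogs within a library do not depend on its scaling. Insig1 over Insig2, as a ratio of TPM, was 0.807, 2.68 and 0.512 in KO replicates 1, 2 and 3, against 4.44, 5.21 and 6.48 in WT replicates 1, 2 and 3. Srebf1 over Srebf2 was 1.53, 0.658 and 2.36 in KO, against 0.554, 0.432 and 0.392 in WT. In KO replicates 1 and 3 Insig2 exceeded Insig1 and Srebf1 exceeded Srebf2, and in KO replicate 2 and each WT library it was the other way round. Scd1 over Scd2 was 0.0658, 0.217 and 0.278 in KO, against 0.175, 0.229 and 0.227 in WT, and here the groups overlapped.

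**Figure D3:**
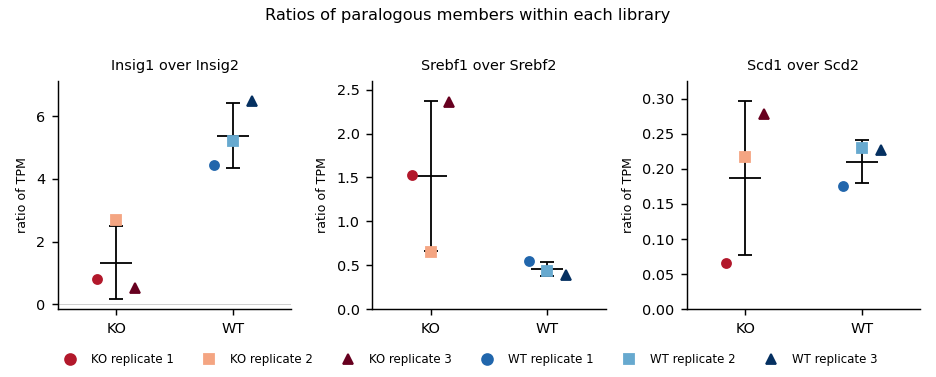
Ratio of TPM of 3 pairs of paralogs within each KO and WT library (points), with the group mean and SD (bars, n = 3). The KO libraries lie below each WT library for Insig1 over Insig2 and above each for Srebf1 over Srebf2, and on both sides of them for Scd1 over Scd2.

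The fatty acid arm starts with the supply of acetyl-CoA and NADPH, where all 3 genes overlapped between groups. Acly, which splits citrate into acetyl-CoA, was at 124, 173 and 92.9 CPM in KO replicates 1, 2 and 3, against 145, 233 and 283 CPM in WT replicates 1, 2 and 3 (log2 fold change -0.76, SE 0.37). Acss2, which makes acetyl-CoA from acetate, and Me1, the cytosolic malic enzyme, stood at -0.22 (SE 0.39) and 0.20 (SE 0.25) on the log2 scale. Acss2 was at 11.3, 6.49 and 13.1 CPM in the KO libraries, against 8.91, 11.3 and 15.6 CPM in the WT libraries. Me1 was at 46.3, 38.1 and 30.9 CPM in the KO libraries, against 35.3, 34.3 and 31.1 CPM in the WT libraries, the only fatty acid gene with a positive fold change.

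Chain synthesis was lower with wide spread. Fatty acid synthase (Fasn, chr11:120805846-120824547) was at 80.0, 349 and 46.4 CPM in KO replicates 1, 2 and 3, against 360.0, 500.2 and 640.2 CPM in WT replicates 1, 2 and 3. KO replicates 1 and 3 had log2 ratios to the WT mean of -2.64 and -3.43, and KO replicate 2 lay just below WT replicate 1. The log2 fold change was -1.66 (SE 0.72). Acaca, the acetyl-CoA carboxylase that commits carbon to fatty acids, was at 26.9, 44.8 and 23.2 CPM in the KO libraries, against 48.5, 62.5 and 74.3 CPM in the WT libraries (log2 fold change -0.96, SE 0.33). Neither was called.

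The elongases parted. Elovl6, which extends palmitate, was at 5.51, 34.4 and 6.28 CPM in the KO libraries, against 42.2, 68.5 and 74.2 CPM in the WT libraries (log2 fold change -2.00, SE 0.71). Elovl5, which extends polyunsaturated chains, overlapped between groups, at 80.8, 89.9 and 105 CPM in the KO libraries, against 90.8, 99.5 and 109 CPM in the WT libraries (log2 fold change -0.12, SE 0.24). Among the desaturases Scd2, a stearoyl-CoA desaturase known from brain, was the most abundant gene of the arm in both groups, at 177 TPM in KO and 539 TPM in WT. In CPM it was at 221, 495 and 350.5 CPM in the KO libraries, against 633, 973 and 1217 CPM in the WT libraries (log2 fold change -1.40, SE 0.43). Scd1, the second stearoyl-CoA desaturase, was at 13.0, 96.4 and 87.1 CPM in the KO libraries, against 99.2, 199.7 and 247 CPM in the WT libraries (log2 fold change -1.47, SE 0.69). KO replicate 1 held far less Scd1 than the other KO libraries, and KO replicate 2 almost reached WT replicate 1. Fads2 and Fads1, which lie side by side on chromosome 19, make polyunsaturated fatty acids. Fads2 was at 12.5, 30.3 and 8.43 CPM in the KO libraries, against 45.7, 52.2 and 61.6 CPM in the WT libraries (log2 fold change -1.63, SE 0.47). Fads1 was at 85.0, 82.3 and 62.6 CPM in the KO libraries, against 101, 105 and 108 CPM in the WT libraries (log2 fold change -0.45, SE 0.24). Each of the 4 desaturases had groups that did not overlap, and none was called.

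Acsl3, the acyl-CoA synthetase that activates fatty acids for lipid droplets and phospholipids (ENSMUSG00000032883.15, chr1:78657825-78707743), was the only fatty acid gene called lower. It was at 16.2, 49.4 and 15.6 CPM in KO replicates 1, 2 and 3, against 120.0, 123 and 147 CPM in WT replicates 1, 2 and 3, a log2 fold change of -2.26 (SE 0.49). Its pattern over the libraries was that of Cyp51: KO replicates 1 and 3 alike, KO replicate 2 higher, and the WT libraries close together.

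Exons of other genes overlap those of several members, low and overlapping ones alike, and how reads there were counted is not given. On the same strand, Acsl3 overlaps Utp14b, which had 131, 417 and 42 counts in KO, against 351, 770 and 1032 counts in WT. Fdps overlaps Gm43738 on the same strand, with 676, 1238 and 336 counts in KO, against 2461, 1980 and 2006 counts in WT. Both partners were thus lowest in KO replicate 3, and Utp14b in KO replicate 2 exceeded WT replicate 1. On the other strand, Cyp51 overlaps Akap9, with 980, 1676 and 298 counts in KO, against 1429, 2562 and 2595 counts in WT, and Hmgcs1 overlaps Gm48342, with 35, 90 and 19 counts in KO, against 1, 262 and 294 counts in WT. The exons of Acss2 overlap those of Ggt7 and Gss, those of Scap 5830462I19Rik and those of Srebf1 Rai1, all on the other strand. How many counts of these members came from the partner was not tested.

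The order of the libraries within a group was counted for each arm. KO replicate 2 was the highest KO library for 18 of 24 sterol genes (75%) and 8 of 12 fatty acid genes (66.7%), beside 39.9% of all tested genes. Among the 42 genes of any kind called lower in KO, members included, it was the highest KO library for 35 (83.3%). WT replicate 1 was the lowest WT library for 11 of 12 fatty acid genes (91.7%) and for 13 of 24 sterol genes (54.2%), beside 41.6% of all tested genes. WT replicate 3 was the highest for the same number of fatty acid genes, 11, and for 13 sterol genes. These are counts over genes that move together in the same 6 libraries and carry no test. KO replicate 2 stood nearest to WT over all genes, with 26.6% of them below the lowest WT library. It was below the lowest WT library for 21 of 24 sterol genes and 10 of 12 fatty acid genes. The same held for 12 of 13 neural and glial markers and 8 of 11 cycling markers, so this was not particular to the lipid genes. In KO replicates 1 and 3 the counts were 20 and 20 sterol and 10 and 10 fatty acid genes, beside 40.0% and 41.7% of all genes.

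Cycling markers and neural and glial markers had lower sums in each KO library. Of the 11 cycling markers 0 were called by edgeR or limma-voom and 6 were called lower by DESeq2, beside 6.68% of all genes. At an unadjusted p under 0.05 (edgeR) 6 were lower and 0 higher, beside 9.57% and 22.2% of all genes. Log2 fold changes of the cycling markers ran from -1.82 to -0.92. In KO replicate 2 Plk1 lay above each WT library and Ccnb1 and Mcm2 lay inside the WT range. Of the 13 neural and glial markers 3 fell (Slc1a3, Cspg5 and Cntn1), 1 rose (Sox9) and 9 did not pass (edgeR). The shares among all genes were 0.226% lower and 11.2% higher.

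Ratios of the arms' summed levels to these lists are given as values. The sterol sum over the cycling sum was 1.42, 0.860 and 2.22 in KO replicates 1, 2 and 3, against 1.04, 1.15 and 1.16 in WT replicates 1, 2 and 3. The sterol sum over the neural and glial sum was 5.90, 1.67 and 7.27 in KO, against 1.96, 2.12 and 2.13 in WT. Both ratios were above each WT library in KO replicates 1 and 3 and below each in KO replicate 2. The fatty acid sum over the cycling sum was 1.44, 1.07 and 2.47 in KO, against 0.838, 1.33 and 1.52 in WT, with KO replicates 1 and 2 inside the WT range. The fatty acid sum over the neural and glial sum was 6.01, 2.07 and 8.10 in KO, against 1.58, 2.46 and 2.78 in WT, with KO replicate 2 inside the WT range. The denominators were themselves lowest in KO replicates 1 and 3, so a high ratio there follows in part from the list chosen, and the part of these markers in the levels of the arms was not tested.

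Adipocyte markers, of a cell type that expresses many fatty acid genes, had a higher sum in each KO library than in each WT library. Of the 12 tested, 5 rose (Fabp4, Lipe, Slc2a4, Pparg and Cebpa; edgeR, beside 11.2% of all genes) and 7 did not pass, among them Adipoq and Plin1 (adjusted p = 0.104 and 0.516, edgeR). The 16 markers summed to 346, 145 and 1249 CPM in KO, against 89.2, 60.3 and 62.2 CPM in WT. DESeq2 called 8 higher and limma-voom 1, beside 17.5% and 5.31% of all genes. Fabp4, also made by endothelium and macrophages, gave 810.1 CPM of the sum in KO replicate 3. In KO replicate 1 Cebpa gave 188 CPM and Fabp4 97.6 CPM of the sum. There 6 of the 12 tested markers lay above each WT library, 5 lay inside the WT range and 1, Plin1, lay below it. Adipoq, the adiponectin gene, was at 0.272, 1.28 and 13.4 CPM in the KO libraries, against 0.383, 0.484 and 0.268 CPM in the WT libraries. Cidea had 0 counts in KO replicates 1 and 3 and Lep in WT replicate 3. In KO replicate 3, the library with the most adipocyte marker counts, the fatty acid sum was below each WT library. Markers of skin and sebaceous gland, another lipid-making tissue, summed to 0.883 to 5.28 CPM in KO, against 1.16 to 1.91 CPM in WT, with Krt15 at 0 in each library. The part of fat cells in these levels was not tested.

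**Figure D4:**
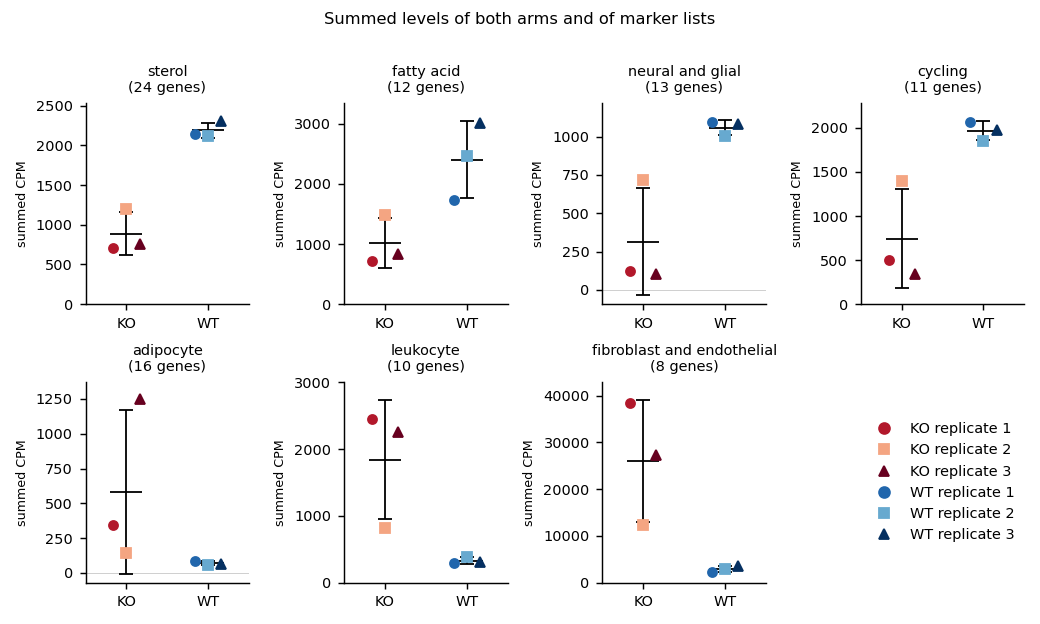
Summed CPM of the sterol genes, the fatty acid genes and 5 marker lists in each KO and WT library (points), with the group mean and SD (bars, n = 3). The sterol and fatty acid sums are below each WT library in each KO library, as are the neural and glial and the cycling sums, and the other lists are above.

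Other genes of lipid metabolism were listed by their role, 125 in 7 lists, and in each list the 4 with the smallest p are named. The lists were chosen with earlier results of these data known, so they are not an independent comparison. Of 122 tested, 8 rose in KO and 0 fell at an adjusted p under 0.05 (edgeR), beside 11.2% and 0.226% of all genes. At an unadjusted p under 0.05 the counts were 26 higher and 14 lower, beside 22.2% and 9.57% of all genes. DESeq2 called 19 higher and 7 lower, beside 17.5% and 6.68%, and limma-voom 4 and 0, beside 5.31% and 0.166%. These counts were near or under the shares among all genes and show nothing particular to the 122. The count of 8 was 29 without KO replicate 2, 3 without KO replicate 3 and 0 without KO replicate 1 or any single WT library, and the count of 0 lower was 19 without KO replicate 2. The median log2 fold change of the 122 was -0.02.

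The machinery that cuts, degrades or assists SREBPs (14 genes) had a median of -0.24, with 0 calls in either direction by edgeR, DESeq2 or limma-voom and 2 genes higher and 2 lower at an unadjusted p under 0.05 (edgeR). Mbtps2, the site-2 protease that releases SREBPs, was at 27.8, 63.2 and 30.9 CPM in the KO libraries, against 66.2, 82.5 and 88.3 CPM in the WT libraries (log2 fold change -0.96, SE 0.36, adjusted p = 0.122, edgeR). Erlin1, which takes part in the turnover of endoplasmic reticulum proteins, was likewise below WT in each KO library (log2 fold change -0.89, SE 0.38, adjusted p = 0.151, edgeR). Fbxw7, which marks nuclear SREBPs for degradation (log2 fold change 0.83, SE 0.36, adjusted p = 0.155, edgeR), and Nfya, a subunit of NF-Y (log2 fold change 0.78, SE 0.33, adjusted p = 0.147, edgeR), were above WT in each KO library. The 16 genes of the branches that use isoprenoids for prenyl groups, dolichol and ubiquinone had a median of -0.23. Of these 0 were called by edgeR or limma-voom, with 1 higher and 3 lower at an unadjusted p under 0.05 (edgeR), and DESeq2 called 1 higher and 2 lower. Srd5a3, a dolichol enzyme, was above WT in each KO library (log2 fold change 1.02, SE 0.28, adjusted p = 0.0539, edgeR). Pdss1, of the ubiquinone side chain (log2 fold change -1.12, SE 0.44, adjusted p = 0.130, edgeR), Rabggtb, of the Rab prenyl transferase (log2 fold change -0.90, SE 0.35, adjusted p = 0.132, edgeR), and Zmpste24, a protease of prenylated proteins (log2 fold change -0.95, SE 0.32, adjusted p = 0.0923, edgeR), were below it.

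The 8 genes that rose were spread over 5 of the 7 lists. Of 15 genes of sterol esterification and transport 2 rose and the median was 0.50. Lipa, the lysosomal lipase that frees cholesterol from its esters, was at 263, 76.6 and 283 CPM in the KO libraries, against 27.8, 35.2 and 36.5 CPM in the WT libraries (log2 fold change 2.65, SE 0.50, adjusted p = 0.0246, edgeR). Cyp27a1, the sterol 27-hydroxylase, also rose (log2 fold change 2.25, SE 0.49, adjusted p = 0.0299, edgeR). Soat1, which esterifies cholesterol (log2 fold change 1.59, SE 0.45, adjusted p = 0.0593, edgeR), and Nceh1, which cleaves the esters (log2 fold change 1.49, SE 0.42, adjusted p = 0.0615, edgeR), did not pass, although their groups did not overlap. Of 21 oxidation genes 2 rose and the median was 0.19. Cpt1a, the gate of fatty acid entry into mitochondria, was at 137, 52.4 and 123 CPM in the KO libraries, against 16.8, 26.8 and 23.1 CPM in the WT libraries (log2 fold change 2.23, SE 0.41, adjusted p = 0.0246, edgeR), and the carnitine carrier Slc25a20 rose with it (log2 fold change 1.59, SE 0.35, adjusted p = 0.0312, edgeR). Decr1 (log2 fold change -0.77, SE 0.30, adjusted p = 0.127, edgeR) and Acaa2 (log2 fold change 1.32, SE 0.45, adjusted p = 0.0961, edgeR), both of the oxidation spiral, did not pass.

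Of 18 glycerolipid genes 2 rose, the lipin Lpin3 (log2 fold change 2.77, SE 0.47, adjusted p = 0.0246, edgeR) and Pcyt1a, of phosphatidylcholine synthesis (log2 fold change 1.66, SE 0.36, adjusted p = 0.0295, edgeR), and the median was -0.04. Lpin1 (log2 fold change 1.64, SE 0.45, adjusted p = 0.0543, edgeR) and Pcyt2, of phosphatidylethanolamine synthesis (log2 fold change -1.31, SE 0.37, adjusted p = 0.0582, edgeR), did not pass and had opposite signs. Of 25 tested genes of other fatty acid steps 1 rose and the median was -0.24. This was Acacb, the mitochondrial counterpart of Acaca, with a mean of 9.86 CPM in KO (SD 4.62, n = 3) and 1.91 CPM in WT (SD 0.665, n = 3) (log2 fold change 2.37, SE 0.53, adjusted p = 0.0318, edgeR). Thrsp, a lipogenic protein of fat and liver, was at 0.918, 0.798 and 8.13 CPM in the KO libraries, against 0.0273, 0.142 and 0.238 CPM in the WT libraries (log2 fold change 4.55, SE 1.22, adjusted p = 0.0510, edgeR), highest in the library with the most adipocyte marker counts. Acsl1 (log2 fold change 1.08, SE 0.33, adjusted p = 0.0750, edgeR) and Acss3 (log2 fold change 2.48, SE 0.67, adjusted p = 0.0528, edgeR), both acyl-CoA synthetases, did not pass. Of 13 genes of NADPH supply 1 rose and the median was 0.06. It was the malic enzyme gene Me3, at 2.29 CPM or less in each library (log2 fold change 3.01, SE 0.80, adjusted p = 0.0494, edgeR). Pgd (log2 fold change 0.71, SE 0.29, adjusted p = 0.147, edgeR), Idh1 (log2 fold change 1.66, SE 0.54, adjusted p = 0.0865, edgeR) and Me2 (log2 fold change -1.24, SE 0.54, adjusted p = 0.158, edgeR) did not pass. Leukocyte and stromal markers were higher in the same KO libraries, and their part in these rises was not tested.

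**Figure D5:**
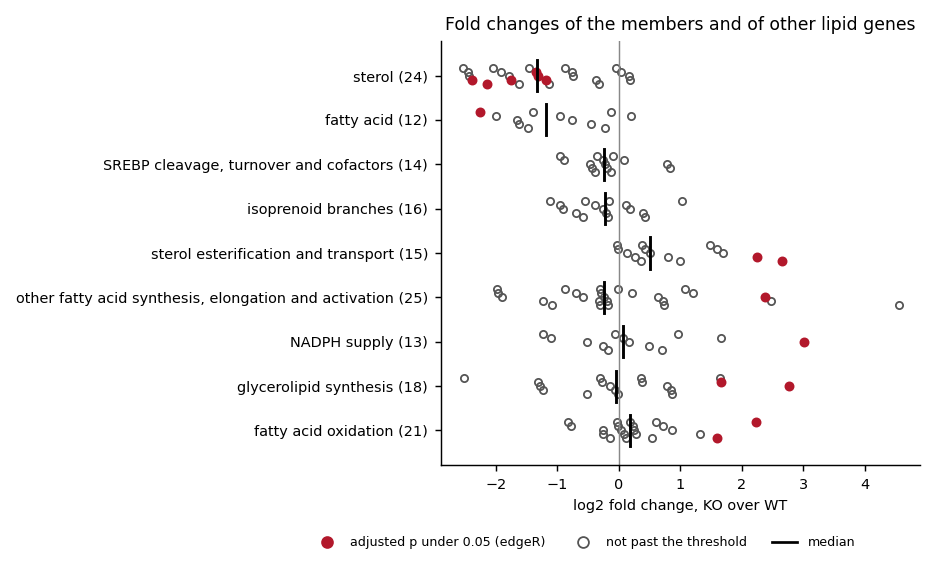
Log2 fold change of KO over WT for each tested gene of the sterol and fatty acid arms and of 7 lists of other lipid genes (number tested in brackets); filled points passed an adjusted p of 0.05 in edgeR and bars are medians. The medians of both arms lie at -1.33 and -1.18 and those of the other lists between -0.24 and 0.50.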

How the data were processed

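Bulk RNA-seq libraries of CT2A subcutaneous tumours from Siglece KO and WT mice (3 each) were compared. The authors deposited raw counts per gene in 1 table with a column of merged exon lengths, per the file headers, and no count column was left out (0). The submitters' processing notes name mm10 and DESeq2; aligner, annotation and strand setting: not given in the sources used here. Groups were taken from the labels, and replicate numbers only name libraries in accession order. Counts were tested with edgeR 4.0.16 (filterByExpr, TMM scaling, quasi-likelihood test, Benjamini-Hochberg adjustment over 18621 genes, threshold 0.05) in R 4.3.3; SE is the absolute log2 fold change over the square root of F. CPM used TMM-scaled library sizes and TPM the deposited lengths. Alternatives were DESeq2 1.42.0, limma-voom (limma 3.58.1), RLE scaling, no composition scaling, no low-count filter and leaving out each library. The test was tested on simulated data. It recovered 25 of 95 changes of 4-fold (26.3%) and 86 of 97 changes of 16-fold (88.7%), so a gene not called may still differ. No pair of libraries agreed within sampling noise (lowest chi-square per degree of freedom 11.1, WT replicates 2 and 3), and each was counted as 1 sample. Members and lists were chosen with earlier results of these data known. All 36 members are named, and in each list of other lipid genes the 4 tested genes with the smallest p. Gene positions are from GENCODE M21 (mm10) and promoters from RefSeq (GRCm38.p6).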

Additional observations from a re-analysis of the deposited data

How the results depend on the processing

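The median log2 fold changes kept their sign in each fit: over the fits without 1 library they ran from -1.52 to -1.27 for the sterol genes (main -1.33) and from -1.53 to -0.97 for the fatty acid genes (main -1.18), and over other tools, scalings and filters from -1.47 to -1.35 and from -1.32 to -1.20. Counts of calls depended on the setting. Without composition scaling, which moved the median of all genes to -0.18 (main -0.05), 3 sterol genes and 24 of all genes were called lower. Without the low-count filter the counts called lower were 15 sterol, 3 fatty acid, 2 other lipid and 476 of all genes, and 17 other lipid genes were called higher. DESeq2 called 16 sterol, 6 fatty acid, 7 other lipid and 1244 of all genes lower, and 19 other lipid and 3266 of all genes higher. Limma-voom called 4 other lipid genes and 988 of all genes higher. Over the fits without 1 library the calls ranged from 0 to 15 (sterol, lower), 0 to 6 (fatty acid, lower), 0 to 19 and 0 to 29 (other lipid, lower and higher), and 0 to 3629 and 0 to 4449 (all genes, lower and higher); the highest were without KO replicate 2.

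The sign turned for genes near 0. Fdft1 was -0.04 without composition scaling and -0.06 with limma-voom, and Scap -0.03 with RLE scaling or DESeq2 and -0.08 without composition scaling. Over the fits without 1 library, Fdft1 ran from -0.68 to 0.48, Tm7sf2 from -0.45 to 0.24, Ebp from -0.58 to 0.01, Scap from -0.16 to 0.21, Acss2 from -0.45 to 0.01 and Me1 from -0.01 to 0.30. The cause was not tested. No paired analysis was possible because the labels give no replicate numbers. With 3 libraries a group an exact permutation test of 1 gene cannot go below 0.1.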
